A study of Homo sapiens with 4 samples.

Results

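Long intergenic non-coding RNAs (lincRNAs) are spliced or unspliced transcripts without a protein product that lie between protein-coding genes. The lincRNAs described here are the well-expressed ones in cells with and without a hairpin against NME7. They were taken as genes of type lincRNA in GENCODE release 29 with at least 200 nt of summed exon sequence and a mean of at least 3 FPKM over 4 libraries. FPKM is the number of sequenced fragments per kilobase of exon, scaled to the size of the library. In all, 160 of the 7558 lincRNA genes of that length met the rule, out of 58735 genes of all types, and 2686 of the 7558 had any fragment at all.

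RNA-seq was deposited for 2 shCtrl libraries, from cells with a control short hairpin RNA, and 2 shNME7 libraries, from cells with a short hairpin RNA against NME7. NME7 encodes a nucleoside diphosphate kinase family protein of the centrosome. All 4 libraries are labelled as Huh7, a cell line established from a human liver cancer. The labels give neither the hairpin sequence, the way it was delivered, the time after delivery nor whether cells were clonal or pooled. Whether libraries 1 and 2 of a group are separate cultures is not said, so each p-value reflects the spread of these libraries alone, which may be technical. Pairs of values below are given in the order of libraries 1 and 2, and sets of 4 in the order shCtrl 1, shCtrl 2, shNME7 1, shNME7 2. In bulk RNA, fewer cells with a transcript and less transcript per cell cannot be told apart.

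The labels were checked first. NME7 stood at 3.64 FPKM in shCtrl 1, 3.93 in shCtrl 2, 0.835 in shNME7 1 and 0.626 in shNME7 2, so both knockdown libraries lay below both controls, at a mean 5.18-fold lower. The liver identity did not show: 10 hepatocyte markers (ALB, AFP, APOA1, APOA2, APOB, TTR, SERPINA1, TF, FGB and HNF4A) summed to between 0.148 and 0.434 FPKM per library. APOA1, APOB and FGB were at 0 in all 4, and none of the 10 reached the mean of 1 FPKM needed for testing. Of 7 fibroblast markers 4 were tested, with sums of 92.2 to 102.7 FPKM, nearly all from COL3A1, LUM and COL1A1, while COL1A2, DCN and THY1 stayed under 0.1. The 6 leukocyte markers summed to at most 0.0476 FPKM, with 4 of them at 0 in all libraries. The 5 endothelial markers summed to between 2.03 and 3.54 FPKM, nearly all from CDH5 and PECAM1. CDH5 stood at 1.70, 1.31, 1.88 and 2.67 FPKM and PECAM1 at 0.559, 0.615, 0.909 and 0.797. VWF and TEK stayed under 0.1 and KDR was at 0. Huh7 cells normally express hepatocyte genes, so the low levels of the 10 hepatocyte markers go against the label. The samples are therefore referred to as libraries labelled Huh7, and the lincRNA levels below describe these 4 libraries and not liver cells.

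The fragments assigned to genes, recovered from the FPKM values, were similar in number, at 14877906 to 16991397 per library. The mitochondrial share ran from 4.24% to 6.59% and overlapped between the groups.

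Well-expressed lincRNAs are a mixed class. MALAT1 and NEAT1 are long nuclear RNAs, found at nuclear speckles and in paraspeckles. NORAD is a cytoplasmic RNA whose repeated Pumilio response elements bind proteins of the Pumilio family. Small nucleolar RNA host genes (SNHGs) carry in their introns snoRNAs, which guide chemical modification of ribosomal and other RNAs. The spliced exons of these hosts are often turned over by nonsense-mediated decay. Other lincRNAs start back to back with a protein-coding gene from a shared promoter region.

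The lincRNA with the largest difference between the groups was AL713998.1, a 2-exon gene at chr6:67887646-67889339 on the minus strand (GRCh38). Its first 200 bases, read from the GENCODE 29 transcript at chr6:67889140-67889339, are shown because the gene has only a clone-based name.

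AL713998.1: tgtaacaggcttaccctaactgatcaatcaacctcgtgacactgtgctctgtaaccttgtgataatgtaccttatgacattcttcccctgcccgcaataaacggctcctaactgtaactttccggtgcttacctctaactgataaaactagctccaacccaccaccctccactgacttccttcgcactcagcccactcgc

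NORAD and HCG11 are shown for the element they share. Capitals mark the Pumilio response element TGTANATA, searched on the transcript strand only, in the 24-base windows chr20:36050185-36050208, chr20:36048907-36048930 and chr20:36046347-36046370 (NORAD, minus strand) and chr6:26522460-26522483, chr6:26523742-26523765 and chr6:26526609-26526632 (HCG11, plus strand) of GRCh38.

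NORAD element 1: aaggcctgTGTATATAatatgaaa
HCG11 element 1: aaggcctgTGTATATAatatgaaa
NORAD element 7: ttttgctcTGTATATAgtatatat
HCG11 element 7: ttttgctcTGTATATAgtgtatat
NORAD element 15: agcctattTGTAAATAcctttgtt
HCG11 element 16: agccaattTGTAAATAccttttta

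The first pair is the same in all 24 bases, and the other pairs differ outside the element. NORAD held 15 such elements and HCG11 held 16, the highest numbers among all lincRNAs of at least 200 nt. NEAT1, with a much longer transcript, held 6. At least 1 element was found in 21 of the 160 well-expressed lincRNAs (13.1%) and in 9.46% of the 7398 others, whose transcripts were shorter (median 706 nt against 944 nt).

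Of the snoRNA hosts, those with both shNME7 libraries above both controls carry the snoRNAs SNORD60 (in SNHG19, chr16:2155023-2155105, minus strand), SNORD7 (in LINC02001, chr17:35573657-35573753, plus strand) and SNORA9 (in SNHG15, chr7:44985378-44985510, minus strand). Capitals mark the C box TGATGA and the D box CTGA of the 2 C/D box snoRNAs, and the terminal ACA of the H/ACA box snoRNA SNORA9, all from GENCODE 29 on GRCh38.

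SNORD60: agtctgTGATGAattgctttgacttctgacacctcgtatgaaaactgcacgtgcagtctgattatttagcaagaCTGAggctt
SNORD7: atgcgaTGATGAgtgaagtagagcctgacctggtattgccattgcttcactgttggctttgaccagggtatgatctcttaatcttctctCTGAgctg
SNORA9: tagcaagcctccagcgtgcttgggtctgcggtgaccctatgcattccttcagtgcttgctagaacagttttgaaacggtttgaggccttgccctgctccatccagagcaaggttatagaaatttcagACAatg

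The microRNA host MIR4458HG, also with both shNME7 libraries above, carries miR-4458 (chr5:8460933-8460951, plus strand, RefSeq, GRCh38.p14). Its seed, bases 2 to 8, is in capitals and is the seed of the let-7 family.

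hsa-miR-4458: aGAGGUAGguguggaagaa

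Levels of the 160 lincRNAs were uneven. Of these, 76 lay between 3 and 5 FPKM, 51 between 5 and 10, 21 between 10 and 20, 7 between 20 and 50, and 5 at 50 or more. The 10 most abundant took 33.9% and 39.3% of the summed FPKM of all 160 in the controls, against 35.6% and 34.1% in the knockdown libraries. Just inside the rule's threshold were AL117379.1 at a mean of 3.01 FPKM and AL035461.2 at 3.04. Just outside were LINC01556 and AC007405.3, both at 2.96, and AL162413.1 reached 6.18 FPKM but was left out for its short exons.

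MALAT1 (chr11:65497688-65506516, plus strand) was the most abundant and among the most variable. It is among the lincRNAs that share exons with another gene, so its counts are uncertain. Its level was 112.3 FPKM in shCtrl 1, 209.0 in shCtrl 2, 167.4 in shNME7 1 and 50.3 in shNME7 2. The lowest library was a knockdown and the highest a control, and the groups overlapped, with an SD inside each group larger than the difference between their means (160.6 ± 68.3 and 108.9 ± 82.8 FPKM, SD, n = 2 each). The log2(FPKM + 1) difference of -0.73 (SE 0.56) had a limma-trend adjusted p of 0.836 over all tested genes, and it turned to 0.13 without shNME7 2. MALAT1 alone made up 7.63% and 13.3% of the summed FPKM of the 160 in the controls, against 9.73% and 3.31% in the knockdown libraries.

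NEAT1 (chr11:65422774-65445540, plus strand), the scaffold of paraspeckles and the neighbour of MALAT1, did not follow it. NEAT1 stood at 48.0 and 53.1 FPKM in the controls against 75.0 and 48.5 in the knockdown libraries. Only shNME7 1 was apart, on the high side, and shNME7 2 lay between the controls. The NEAT1 level was 42.8% and 25.4% of that of MALAT1 in the 2 controls, 44.8% in shNME7 1 and 96.4% in shNME7 2, where MALAT1 was at its lowest. Of 14 genes for paraspeckle proteins, all tested, 0 passed in limma-trend or in limma-voom. Among them 6 were higher and 8 lower by their means, with a median log2 difference of -0.01 beside 0.01 for all tested genes. The essential paraspeckle protein NONO stood at 121.0, 123.9, 115.8 and 104.1 FPKM, and its partner SFPQ at 46.8, 46.2, 41.6 and 39.6, so that both lay below the controls in both knockdown libraries. HNRNPK, the most abundant of the list, also lay below them, at 145.5, 148.2, 128.9 and 143.1 FPKM, as did EWSR1, which makes 4 of the 14. Another 2 had both knockdown libraries above: HNRNPH3 at 38.0, 39.4, 46.5 and 41.0 FPKM and TARDBP at 17.4, 18.6, 20.8 and 18.9. Of all 12866 tested genes, 17.8% lay above and 18.4% below in this way. Of 7 nuclear structure lncRNAs, MALAT1 and NEAT1 among them, 4 were tested and 0 passed. TUG1 stood at 15.8, 20.1, 15.3 and 15.9 FPKM and FIRRE at 1.55, 1.76, 2.23 and 1.35.

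**Figure D1:**
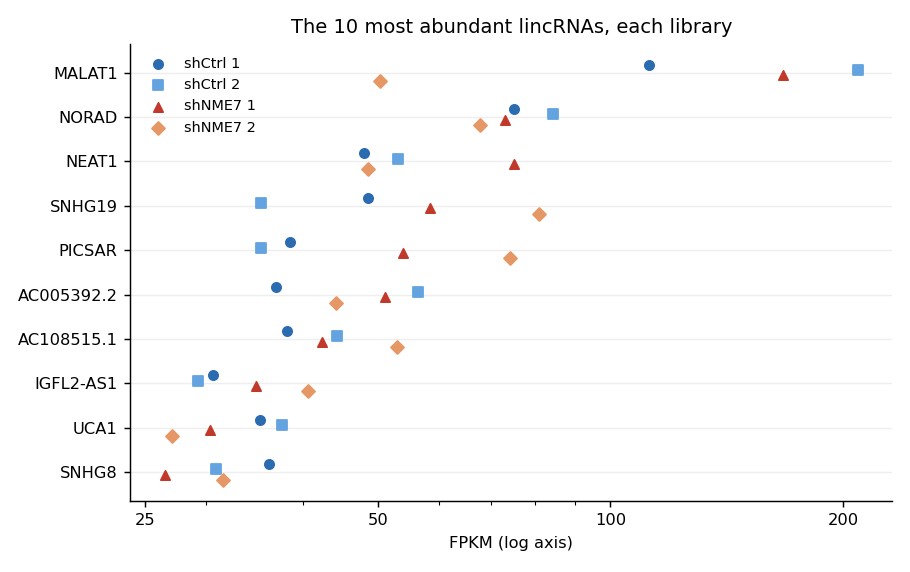
FPKM on a log axis of the 10 lincRNAs with the highest mean, with 1 symbol per library (blue for shCtrl, red and orange for shNME7). MALAT1 spreads from 50.3 to 209.0 FPKM with the groups overlapping, while both shNME7 libraries lie above both controls for SNHG19, PICSAR and IGFL2-AS1 and below them for NORAD and UCA1.

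NORAD (chr20:36045622-36050960, minus strand), a single-exon RNA of 5339 nt, was second in abundance and steady. It stood at 74.9 and 84.2 FPKM in the controls against 73.0 and 67.8 in the knockdown libraries. Both knockdown libraries lay below both controls, though by little: the means were 79.6 ± 6.52 and 70.4 ± 3.65 FPKM, a log2 difference of -0.17 (SE 0.14), and of -0.09 without shCtrl 2. HCG11 (chr6:26521709-26527404, plus strand), its relative, stood at 18.5 and 19.3 FPKM in the controls and 15.96 and 14.2 in the knockdown libraries, again on the low side in both. The 2 RNAs aligned at 90.4% identity over 4660 columns and at 89.2% over 803 more, so fragments may be shared between them in counting, and the HCG11 level was a fairly constant 24.7%, 22.9%, 21.9% and 21.0% of that of NORAD. OVCH1-AS1, which matches 99.8% of NORAD at 95.6% identity, was at 0.0910 FPKM or less in every library. Genes of NORAD-binding proteins were read beside it. PUM2 stood at 24.2, 27.1, 22.7 and 21.1 FPKM. RBMX, an RNA-binding protein, stood at 50.6, 54.2, 48.4 and 41.7 FPKM. Both knockdown libraries lay below both controls for PUM2 and RBMX, and neither passed in limma-trend or limma-voom.

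Next in abundance were SNHG19 and PICSAR, both with higher levels in both knockdown libraries. SNHG19 (chr16:2154797-2155358, minus strand), the host of SNORD60, stood at 48.5 and 35.4 FPKM in the controls against 58.4 and 80.9 in the knockdown libraries, a mean 1.66 times that of the controls. PICSAR (chr21:44999208-45004727, minus strand), a lincRNA described in cutaneous squamous cell carcinoma, stood at 38.5 and 35.3 FPKM against 53.9 and 74.2, a ratio of 1.74. In both cases shNME7 2 was the highest library and shCtrl 2 the lowest. The log2 differences were 0.72 (SE 0.22) and 0.76 (SE 0.19), with limma-trend adjusted p-values of 0.728 and 0.586, and neither passed. LINC00165, which lies 4022 nt from PICSAR on the same strand, also separated, at 6.94, 7.83, 9.04 and 10.3 FPKM.

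AC005392.2 and AC108515.1, a pair of uncharacterised lincRNAs, and SNHG8, the host of SNORA24, overlapped between the groups. AC005392.2 stood at 36.9, 56.4, 51.1 and 44.2 FPKM, with the controls as the lowest and the highest library. AC108515.1 stood at 38.2, 44.3, 42.3 and 52.9 FPKM. SNHG8 stood at 36.2, 30.9, 26.5 and 31.5 FPKM. No group was apart from the other in these. IGFL2-AS1, a transcript of the IGFL gene cluster, was higher in both knockdown libraries, at 30.6 and 29.3 against 34.8 and 40.6 FPKM, and its log2 difference of 0.32 was 0.21 without shNME7 2. UCA1, a lincRNA first described in urothelial cancer, was lower in both, at 35.2 and 37.6 against 30.3 and 27.1 FPKM, a log2 difference of -0.33 (SE 0.14). UCA1 shares exon sequence with LINC01764 on the opposite strand, and because the strand setting of the counting is not given in the sources used here, their reads cannot be told apart. UCA1 was also the only well-expressed lincRNA on a list of 22 lncRNAs linked to liver or liver cancer, of which 21 were matched. Of these 21, 10 were at 0 in all 4 libraries, 5 were tested and 0 passed in either test. H19, the most abundant, stood at 36.8, 38.2, 38.5 and 78.2 FPKM, high in shNME7 2 alone, and HOTAIR and HOTTIP had means of 7.42 and 2.24 FPKM.

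The groups were then compared over all 160. Both knockdown libraries lay above both controls for 41 of the 160 (25.6%), against 17.8% of all 12866 tested genes, and below both for 21 (13.1%), against 18.4%. The other 98 overlapped. The 62 lincRNAs outside the controls on either side are called separated below. Since this contrast chose which lincRNAs are described, the shares are given without a test and nothing is read from them. By group means, 101 lincRNAs were higher in shNME7 and 59 lower, with a median log2 difference of 0.09 beside 0.01 over all tested genes and 0.01 over the 8607 protein-coding genes with at least 3 FPKM. Without shNME7 1 the median over the 160 was 0.03. Single differences ran from -1.49 to 0.84.

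**Figure D2:**
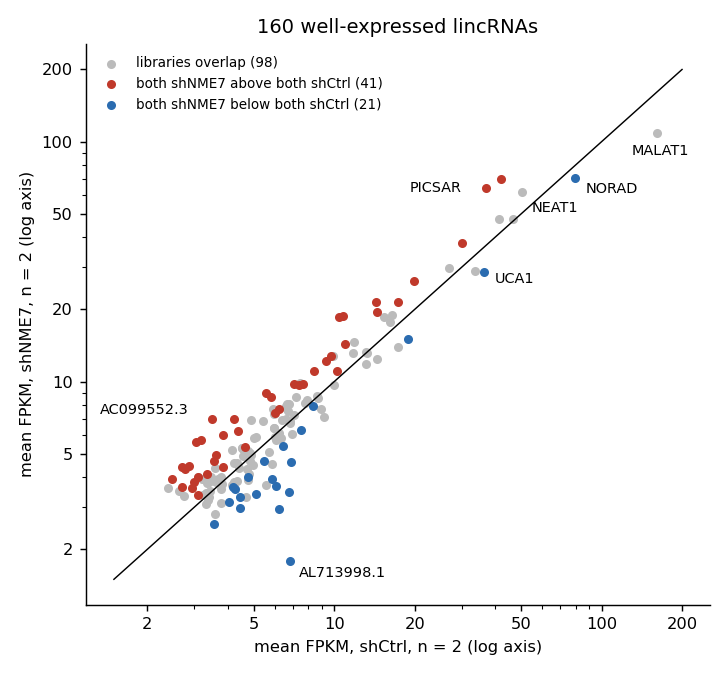
Mean FPKM of each of the 160 lincRNAs in shNME7 (vertical) against shCtrl (horizontal), both on log axes with n = 2, and the line of equal levels. Points are coloured by whether the libraries overlap (98), both shNME7 lie above (41) or both lie below (21), and AL713998.1 stands farthest from the line.

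In limma-trend, fitted over all genes with at least 1 FPKM, 0 of the 160 passed an adjusted p of 0.05, as did 0% of all 12866 genes. The knockdown target NME7 did not pass it either, with a limma-trend adjusted p of 0.310, and no gene had a smaller one. A count of 0 in this test is therefore no sign that levels were unchanged. In limma-voom NME7 passed (adjusted p = 0.000998). At an unadjusted p under 0.05 there were 26 of the 160 and 859 of the 12866. In limma-voom on the recovered fragments, 1 lincRNA passed, lower in shNME7, against 0.0926% of 15112 genes lower and 0.0132% higher (16 genes in all), and 18 lincRNAs and 1197 genes had an unadjusted p under 0.05. Calls in limma-trend rested on which libraries entered: 6 of the 160 passed without shCtrl 1, 2 without shCtrl 2, 18 without shNME7 1 and 12 without shNME7 2. Of all 12866 genes, 133 (1.03%), 112 (0.871%), 632 (4.91%) and 277 (2.15%) passed in the same 4 fits.

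The lincRNA that passed was AL713998.1, whose statistics are given as a description, since the same contrast singled it out. Its level was 6.73 FPKM in shCtrl 1 and 6.95 in shCtrl 2, but 1.58 in shNME7 1 and 2.02 in shNME7 2. The controls were nearly equal, the knockdown libraries were both far below them, and the mean was 3.81-fold lower (6.84 ± 0.154 against 1.80 ± 0.313 FPKM). These levels rest on 172, 180, 38 and 55 fragments. limma-voom gave a log2 difference of -1.92 (SE 0.29; adjusted p = 0.0121). The limma-trend difference of -1.49 (SE 0.15) had an adjusted p of 0.310 and did not pass. It passed with the replicate block and with any library left out. It did not pass in limma-trend with a pseudocount of 0.1 (adjusted p = 0.459), with no filter on low values (0.562) or with trends on GC content and length removed (0.164), and the crossed replicate block called 0 genes. No other gene shares its exons, and the nearest protein-coding gene, ADGRB3, is 746028 nt away.

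The other lincRNAs with both knockdown libraries on the low side differed less. BX640514.2 stood at 7.34 and 5.06 FPKM in the controls against 2.87 and 3.02 in the knockdown libraries, 2.11-fold lower by its means. AP001574.1 stood at 7.48 and 6.02 against 4.996 and 1.94 FPKM, and without shNME7 2 its log2 difference of -0.88 was -0.36. AC016717.2, a long single-exon transcript with a low GC content of 31.9%, stood at 5.83 and 6.28 against 4.44 and 2.93, and it shares exons with AC016717.1. Its log2 difference of -0.61 was -0.37 without shNME7 2. All 3 were separated between the groups, with shNME7 2 low for AP001574.1 and AC016717.2 and the knockdown libraries close together for BX640514.2. CYP4F26P, named after a cytochrome P450 pseudogene, stood at 5.86 and 5.83 against 3.22 and 4.61 FPKM, with a log2 difference of -0.49 that was -0.29 without shNME7 1. CYP4F26P has a near-identical copy, FAM95C, that covers 92.0% of it at 96.2% identity, so its counts are uncertain. The remaining 5 of the 10 largest (AC099518.1, AC093484.4, AC108062.1, LINC02167 and AL353804.1) had log2 differences between -0.47 and -0.36, and limma-trend adjusted p-values between 0.730 and 0.796. Of these, 4 moved by over 1.5 times with 1 library left out. Without shCtrl 2 the difference of AC093484.4 went from -0.46 to -0.22 and that of AC108062.1 from -0.45 to -0.26. Without shNME7 2 that of AL353804.1 went from -0.36 to -0.08 and that of LINC02167 from -0.37 to -0.18.

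On the high side, SNHG19 and PICSAR, given above, were also among the 10 largest differences. AC099552.3 (chr7:155204147-155205189, plus strand) stood at 4.11 and 2.87 FPKM in the controls against 6.71 and 7.22 in the knockdown libraries, a ratio of 1.99 with a log2 difference of 0.84 (SE 0.18). The knockdown libraries were close together and both well above the controls. AC104986.2 stood at 4.63 and 1.47 against 5.78 and 5.42 FPKM, and AL359504.2 had a like pattern at 3.96 and 1.43 against 4.66 and 4.19. In both, shCtrl 2 was far lower than shCtrl 1, and without shCtrl 2 their log2 differences were 0.23 and 0.13. AC009414.2 stood at 13.9 and 7.62 against 17.8 and 19.8 FPKM. AC048341.2 stood at 13.6 and 7.32 against 21.5 and 15.5 FPKM. For these as well shCtrl 2 was the lowest library, with shCtrl 1 between it and the knockdown libraries. Without shCtrl 2 the log2 difference of AC009414.2 went from 0.80 to 0.41 and that of AC048341.2 from 0.81 to 0.40. LINC00896 and LINC01836 had tight replicates. LINC00896 stood at 4.22 and 4.20 against 6.72 and 7.25 FPKM and LINC01836 at 5.63 and 5.49 against 9.18 and 8.73, ratios of 1.66 and 1.61. Z82243.1 completed the 10, at 3.32 and 3.02 against 7.03 and 4.36 FPKM, and its log2 difference of 0.66 was 0.36 without shNME7 1. Depth was low here: AC104986.2 rested on 28, 9, 33 and 35 fragments, and 40 of the 160 lincRNAs had a mean under 50 fragments.

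**Figure D3:**
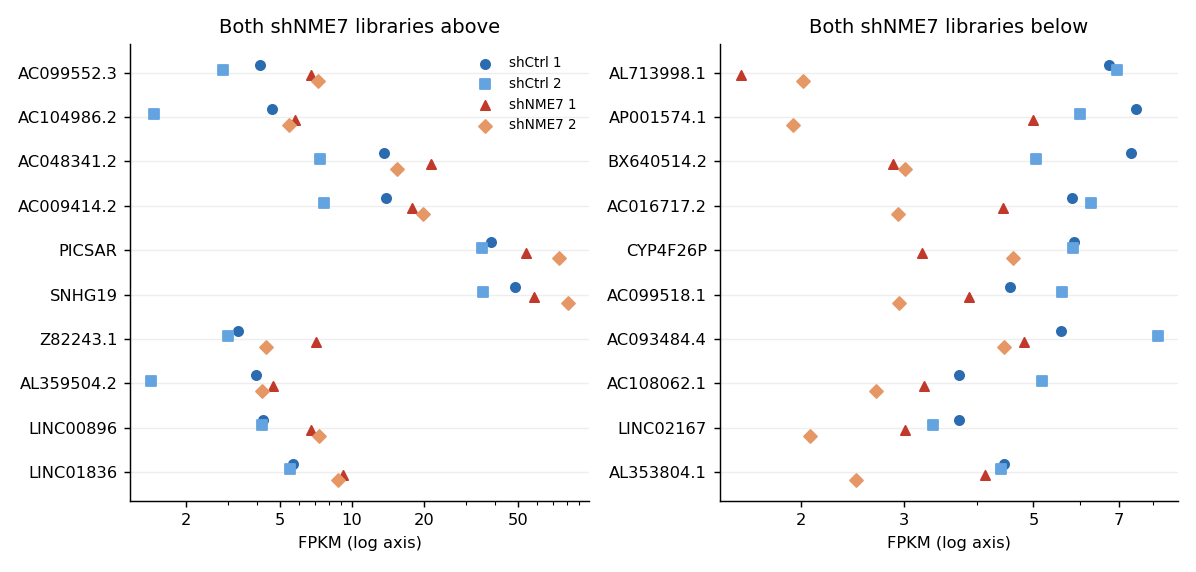
FPKM on log axes, per library, of the 10 lincRNAs with the largest differences among those with both shNME7 libraries above (left) and below (right) both shCtrl libraries, in order of the size of the difference. AL713998.1 shows the widest gap between groups, while AC104986.2 and AL359504.2 have shCtrl 2 far to the left of shCtrl 1.

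SnoRNA hosts formed a small group with known products. Of the 6 hosts among the 160, 3 had both knockdown libraries above both controls (17.8% of all tested genes did), 0 had both below (18.4%), and 5 had the higher mean in shNME7. With a trend on GC content and length removed from each library, 4 were above and 1 below, beside 41 and 30 of all 160 lincRNAs. The share of all tested genes was not counted with the trend removed. SNHG15 (chr7:44983023-44986961, minus strand), the host of SNORA9, stood at 14.2 and 14.7 FPKM in the controls against 19.3 and 19.7 in the knockdown libraries. LINC02001, the host of SNORD7, stood at 18.2 and 16.4 against 20.2 and 22.5. SNHG15 was the tightest of the separated hosts, at 1.35 times the control mean, and LINC02001 differed by 1.24 times. LINC02001 is among the lincRNAs that share exons with another gene, so its counts are uncertain. SNHG4 (15.8, 16.4, 20.1 and 15.4 FPKM) and EPB41L4A-AS1, the host of SNORA13 (9.66, 7.55, 8.64 and 8.79 FPKM), overlapped between the groups. SNHG4 shares exons with MATR3 and SIL1, and EPB41L4A-AS1 with EPB41L4A.

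Over the whole list of 29 snoRNA host lncRNAs, 26 were tested and 0 passed in either test, with 19 higher and 7 lower by their means and a median log2 difference of 0.11 beside 0.01 for all tested genes. Both knockdown libraries were above both controls for 8 of the 26 and below for 2, beside 17.8% and 18.4% of all tested genes. The most abundant hosts were GAS5 at 92.2, 97.1, 120.6 and 101.5 FPKM, SNHG6 at 90.9, 85.1, 99.5 and 101.7, and LRRC75A-AS1 at 93.8, 83.9, 93.0 and 94.7, so GAS5 and SNHG6 separated upwards and LRRC75A-AS1 overlapped. Of 10 nonsense-mediated decay factors, the machinery that degrades many host exons, 10 were tested, 0 passed, 2 were higher and 8 lower by their means, with a median of -0.08. Both knockdown libraries were above both controls for 0 of the 10 and below for 1, UPF2, at 13.1, 15.0, 10.7 and 10.3 FPKM. The core helicase UPF1 overlapped, at 20.02, 16.3, 16.4 and 20.7 FPKM, as did SMG5 at 27.6, 24.3, 24.7 and 29.6.

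Of 20 microRNA host lncRNAs, 19 were matched, 10 tested and 0 passed, with 8 higher and 2 lower by their means and a median log2 difference of 0.21. Both knockdown libraries were above both controls for 7 of the 10 and below for 0, beside 17.8% and 18.4% of all tested genes. H19 was among the 7 by a small margin, with 38.5 FPKM in shNME7 1 against 38.2 in shCtrl 2. MIR22HG was the only lincRNA on that list to reach 3 FPKM, and it overlapped, at 4.48, 5.02, 4.68 and 5.58 FPKM. Below 3 FPKM, the hypoxia-linked MIR210HG separated, at 1.65, 1.76, 3.10 and 3.65 FPKM. MIR4458HG, which was not on the list, stood at 3.85, 3.81, 4.66 and 4.14 FPKM, and shares exons with LINC02226 on the opposite strand.

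Among 13 lncRNAs linked to stress or p53, 12 were matched, 9 tested and 0 passed. By their means 5 were higher and 4 lower, with a median log2 difference of 0.07. Both knockdown libraries were above both controls for 3 of the 9 (PURPL, TP53TG1 and CYTOR) and below for 2 (NORAD and LUCAT1), beside 17.8% and 18.4% of all tested genes. PURPL (chr5:27472292-27496401, plus strand), a p53-induced lincRNA that lowers p53 levels, stood at 12.7 and 15.9 FPKM in the controls against 24.9 and 18.1 in the knockdown libraries. Both knockdown libraries were above both controls, with shNME7 1 highest, at 1.51 times the control mean and a log2 difference of 0.55 (SE 0.20; limma-trend adjusted p = 0.728), which was 0.33 without shNME7 1. TP53TG1, another p53 target, was under the 3 FPKM level and separated the same way, at 1.04, 1.15, 2.15 and 2.94 FPKM. LUCAT1, also under that level, separated downwards, at 1.31, 1.56, 1.28 and 0.81 FPKM. GABPB1-AS1 overlapped, at 7.87, 8.95, 9.33 and 6.87 FPKM. PVT1, the neighbour of MYC, was the steadiest of all 160, at 6.97, 6.74, 6.67 and 7.02 FPKM, with the highest library 1.05 times the lowest.

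RefSeq promoter windows (GRCh38.p14, 250 bases before to 50 after the start) were found for 38 of the 160, as 41 windows. The windows of PURPL (chr5:27472042-27472341, plus strand) and SNHG19 (chr16:2155309-2155608, minus strand) are shown for the motifs found in them. Capitals mark matches to the p53 decamer in PURPL and to the TATA box TATAAA in SNHG19.

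PURPL promoter: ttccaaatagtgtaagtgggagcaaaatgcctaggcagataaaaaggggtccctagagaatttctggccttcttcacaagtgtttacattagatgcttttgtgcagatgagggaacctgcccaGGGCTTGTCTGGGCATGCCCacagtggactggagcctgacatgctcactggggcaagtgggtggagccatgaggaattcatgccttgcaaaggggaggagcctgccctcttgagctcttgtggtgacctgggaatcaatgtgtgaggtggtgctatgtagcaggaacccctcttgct
SNHG19 promoter: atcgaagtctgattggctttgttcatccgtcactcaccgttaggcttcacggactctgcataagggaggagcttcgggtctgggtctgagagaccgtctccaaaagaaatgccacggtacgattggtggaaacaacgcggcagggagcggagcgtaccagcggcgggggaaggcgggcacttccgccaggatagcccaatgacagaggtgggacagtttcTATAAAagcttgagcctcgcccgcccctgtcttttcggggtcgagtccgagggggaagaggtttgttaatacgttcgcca

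In PURPL a pair of p53 decamers lay end to end, at -127 and -117 from the start. This motif was added after the promoter was seen. At least 1 decamer was found in 6.63% of 35116 RefSeq promoters and in 5 of the 41 windows. In SNHG19 the TATA box lay at -30, and TATAAA was found in 3 of the 41 windows and in 11.5% of all promoters. The other motifs, searched on both strands, were ACGTG (12 of 41 windows, 21.4% of promoters), GCGTG (25 of 41, 36.5%), TGACGTCA (1 of 41, 1.85%) and TGATGNAA (0 of 41, 3.62%). ACGTG and its reverse complement overlap within CACGTG. A match is a run of letters and not a binding site.

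The well-expressed lincRNAs lay closer to protein-coding genes than the other lincRNAs did. The median distance was 3053 nt against 38224 nt, and 63.8% against 32.3% lay within 10 kb. A head-to-head start within 1 kb of that of a protein-coding gene on the opposite strand was found for 33 of 160 (20.6%), against 387 of 7398 (5.23%). They were also longer in exon sequence (median 1108 against 761 nt), were more often annotated with 1 exon only (34.4% against 15.4%), and more often hosted a small RNA (6.25% against 1.61%). These are counts over annotated genes, chosen by level, and were not tested.

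**Figure D4:**
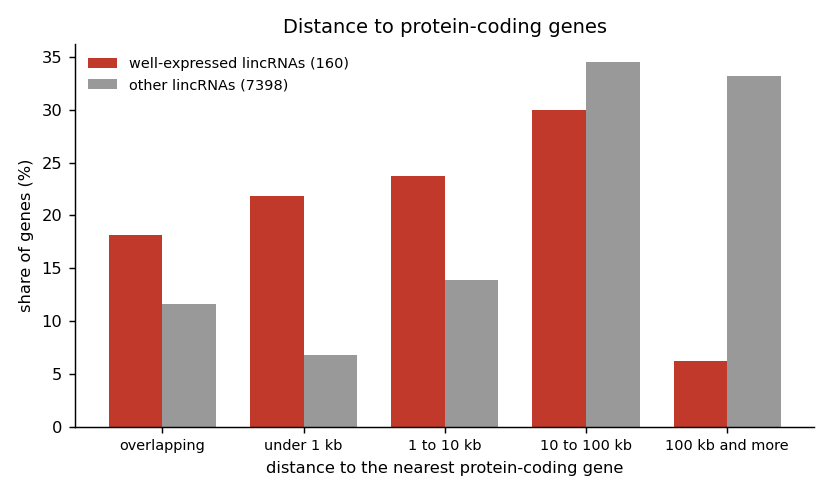
Share of genes (%) by distance to the nearest protein-coding gene, for the 160 well-expressed lincRNAs (red) and the 7398 other lincRNAs of at least 200 nt (grey). Of the well-expressed, 6.25% lie 100 kb or more away, against 33.2% of the others.

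Of the 33 head-to-head lincRNAs, 14 had both knockdown libraries above both controls (17.8% of all tested genes did) and 1 had both below (18.4%), and 29 had the higher mean in shNME7. With the trend on GC content and length removed, 13 were above, 2 below, and 24 had the higher mean, beside 41, 30 and 89 of all 160. The share of all tested genes was not counted with the trend removed. The median GC content of the 33 was 50.9%, beside 48.6% over all 160, and its part in these counts was not tested. Over the 31 with a tested partner, the Spearman correlation of the log2 differences was -0.02 (these points share the 4 libraries). AC009414.2 was higher in both knockdown libraries, while its partner CRIM1 was lower in both, at 0.86 times the control mean. AC012306.2 was higher at 7.29 and 7.57 FPKM against 6.38 and 5.61, while its partner AMMECR1L stood at 0.76 times the control mean, with both knockdown libraries below. AC012306.2 has a near-identical copy, AL135925.1 (97.9% identity over its length), so its counts are uncertain. SNHG19 and its partner TRAF7 differed too, the latter overlapping between the groups at a ratio of 1.09. PAXIP1-AS1 (8.25, 5.91, 10.2 and 9.29 FPKM) separated upwards, with PAXIP1 overlapping at a ratio of 1.01.

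Counting all neighbours within 10 kb, 94 lincRNAs had a tested protein-coding neighbour, and the log2 differences had the same sign in 51 of the 94 (Spearman rho 0.14 over these pairs). Of the 32 separated lincRNAs with such a neighbour, the neighbour separated to the same side in 5 and to the opposite side in 6. For comparison, 17.8% of all tested genes separated upwards and 18.4% downwards, and nothing is read from these counts. Among the 5 was AC009275.1, near the aldo-keto reductase gene AKR1B1, at a ratio of 1.37 beside 1.32 for AKR1B1. Among themselves, 22 of the 160 formed 11 pairs within 50 kb of each other, and the differences had the same sign in 8 of the 11. In 1 pair on chromosome 16, 12924 nt apart, AC099518.1 was lower in both knockdown libraries (4.56 and 5.603 against 3.88 and 2.94 FPKM) and AC099518.6 higher in both (9.22 and 9.37 against 13.5 and 10.9).

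Exons were shared with another gene in 37 of the 160, with 12 on the same strand and 32 on the opposite strand, and 8 had a copy of at least 95% identity over at least 50% of their length. Of the 37, 8 separated upwards (21.6%) and 4 downwards (10.8%). Of the 123 with no shared exon, 33 (26.8%) and 17 (13.8%) did, beside 17.8% and 18.4% of all tested genes.

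GC content and single libraries moved with the differences. GC content was related to the difference between the groups, weakly over the 160 lincRNAs (Spearman rho 0.22) and more strongly over 12857 tested genes (0.41). By library, the deviation of the 160 correlated with GC at 0.03 and -0.36 in the controls and at -0.30 and 0.47 in the knockdown libraries, and only shNME7 2 was clearly positive. The part of GC content in the differences was not tested. Of 66 lincRNAs with at least 50% GC, 20 separated upwards (30.3%) and 4 downwards (6.06%). Of the 94 under 50%, 21 separated upwards (22.3%) and 17 downwards (18.1%). The shares of all tested genes were 17.8% and 18.4%, and these were not counted by GC class. With a trend on GC and exon length removed from each library, 41 separated upwards, 33 of them among the original 41. Downwards there were 30, with 20 of the original 21, and the median difference was 0.03. Separation of all tested genes was not counted with the trend removed, so no share stands beside these counts. AL713998.1 was as low with the trend removed, at -1.56.

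**Figure D5:**
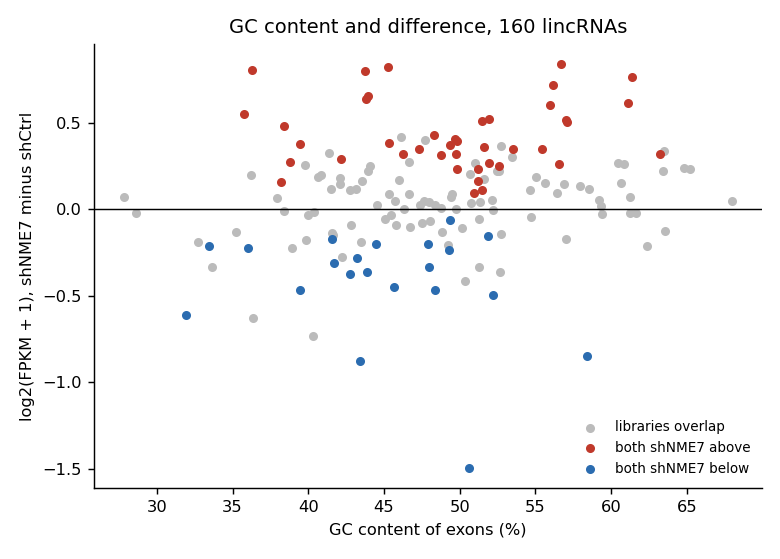
Difference in log2(FPKM + 1) between shNME7 and shCtrl against the GC content of the exons (%), 1 point per lincRNA (160), coloured by whether the libraries overlap or separate. Of the 21 downward separations, 4 lie at 50% GC or more, AL713998.1 among them at -1.49.

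Single libraries also carried much of the spread. The highest of the 4 values was in shNME7 1 for 66 lincRNAs, and the lowest was in shCtrl 2 for 60 and in shNME7 2 for 54. The highest library was at least 2 times the lowest for 32 of the 160, and at least 4 times for 2, AL713998.1 and MALAT1. Together the 160 took 0.460% and 0.569% of all recovered fragments in the controls and 0.602% and 0.400% in the knockdown libraries. These shares overlapped (exact permutation test, two-sided, p = 1; the smallest p that 2 against 2 libraries allows is 0.333). Without MALAT1 they were 0.361%, 0.384%, 0.453% and 0.355%, and the sign of the difference of means turned from -0.0138 to 0.0318 percentage points.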

How the data were processed

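The authors deposited 1 table per library with FPKM values, per the file headers. HISAT2 2.0.5 and the build hg18 are listed in the submitters' processing notes; which counting tool, annotation and strand setting were used is not stated. Every gene ID is found in GENCODE 29, which annotates GRCh38 and gave names, coordinates, types and exon lengths. FPKM times exon length gave whole fragments within 0.01 for 100% of values, so fragments were recovered; a count of 0 allows 3 fragments, for counting error only.

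The main test was limma-trend (limma 3.58.1, R 4.3.3) on log2(FPKM + 1), for genes with a mean of at least 1 FPKM, two-sided, Benjamini-Hochberg over all tested genes, threshold 0.05; differences on this scale understate those of low genes. limma-voom used recovered fragments (mean of at least 10) with the library totals implied by the FPKM values. Both were run on simulated data in which only genes with many fragments were changed, without effects of GC content or of single libraries. The simulation therefore does not cover lincRNAs with few fragments. GC and length trends were removed per library by loess (span 0.3). Copies were sought with blastn 2.17.0, and tables were handled in Python 3.11.15. Named lincRNAs are the 10 most abundant, the 10 largest separated differences per direction, those called, and members of gene lists; for other list genes, up to 3 of highest mean. HCG11, LINC00165, the members near coding genes or in pairs, and other single genes named beside them were chosen after their values were seen. The lincRNAs and the 12 lists were chosen with earlier results of these data known. Alternatives were a pseudocount of 0.1, no filter, other thresholds, the replicate block, trend removal, limma-voom and each library left out; limma-voom with these and a crossed pairing were added after seeing the data. A few genes that the rule or lists hold are not reported here.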

Additional observations from a re-analysis of the deposited data

How the results depend on the processing

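With a pseudocount of 0.1, no filter or trends removed, limma-trend called 0 genes and 0 lincRNAs, the same counts as in the fit reported; other fits moved them. Of all tested genes, limma-trend called 0, 122 with the replicate block and 112 to 632 with each library left out (632 without shNME7 1). limma-voom called 16, 12 with GC and length trends removed, 34 with the replicate block and 28 to 430 with each library left out (39 without shCtrl 1, 41 without shNME7 2). Of the 160 lincRNAs the same fits called 0, 2 (AL713998.1 and AP001574.1), 2 to 18, 1, 1, 1 and 1 to 7. Leaving out a library leaves a group with 1 sample, whose spread is taken from the other group. Same-numbered libraries did not deviate together (correlation -0.35). The labels do not say whether they were paired, and this correlation cannot decide it. The crossed replicate block pairs shCtrl 1 with shNME7 2 and shCtrl 2 with shNME7 1, as the sign of this correlation in the same data favours. With it limma-voom called 1281 of 15112 genes and 12 of the 160 lincRNAs, and limma-trend 0 and 0. Since the pairing follows from these data, nothing is read from these counts. The cause of these shifts was not tested.

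Separation upwards went from 41 of the 160 (25.6%) to 107 of 439 with a threshold of 1 FPKM and to 13 of 33 (39.4%) with 10 FPKM. With each library left out it was 61 to 84 of the 160 (71 without shCtrl 1, 63 without shNME7 1, 84 without shNME7 2). Separation downwards went from 21 (13.1%) to 58 of the 439 and to 3 of the 33 (9.09%). With each library left out it was 31 to 59 of the 160 (38 without shCtrl 1, 37 without shCtrl 2, 59 without shNME7 1). With all 4 libraries 17.8% of all tested genes separated upwards and 18.4% downwards, and their shares with a library left out were not counted. Fewer or more genes and fewer libraries enter by construction. The median log2 difference over the 160 ran from 0.031 (without shNME7 1) to 0.12 with each library left out. The difference in the fragment share turned from -0.0138 to 0.0318 percentage points without MALAT1, and ran from -0.115 to 0.0875 with each library left out (0.0409 without shCtrl 2, 0.0875 without shNME7 2). Of the 35 lincRNAs named by the rule, 28 kept their direction in every alternative. The log2 difference turned in 7. With each library left out it ran from -1.59 to 0.13 for MALAT1, from -0.057 to 0.56 for NEAT1, from -0.066 to 0.30 for SNHG4, from -0.13 to 0.18 for EPB41L4A-AS1, from -0.017 to 0.20 for MIR22HG, from -0.033 to 0.031 for PVT1 and from -0.24 to 0.35 for AC005392.2, which also turned with trends removed (-0.041, and -0.092 in limma-voom). The libraries that turned them were shNME7 2 for MALAT1 and MIR22HG, shNME7 1 for NEAT1, SNHG4, PVT1 and AC005392.2, shCtrl 1 for PVT1 and AC005392.2, and shCtrl 2 for EPB41L4A-AS1. Depth limits lincRNAs with few fragments, 9 in the lowest case.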
